A study of Mus musculus with 11 samples.

Results

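Acute phase proteins are plasma proteins that hepatocytes make in larger or smaller amounts during infection and injury, and 10 genes of this kind were described in liver: Saa1, Saa2, Saa3, Saa4, Orm1, Orm2, Hp, Lcn2, Serpina3n and Itih3. They were chosen by name. All probes that carry a member's symbol in the table of bead intensities were taken, each probe apart, which gave 14 probes among the 45281 on the array, for 10 of its 30869 gene symbols. Every member had at least 1 probe, and all 14 probes were detected on all 11 arrays and were among the 21485 probes tested. Saa1 and Itih3 had 2 probes each and Hp had 3.

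Liver RNA came from male C57BL/6J mice, 8 weeks old by the labels, that had been infected with adenovirus carrying FXR, the bile acid receptor encoded by Nr1h4. The groups were obese FXR-K217R (3 arrays), obese FXR-WT (3 arrays), lean FXR-K217Q (3 arrays) and lean FXR-WT (2 arrays), where K217R puts arginine in place of an acetylated lysine and cannot be acetylated, and K217Q puts glutamine there and resembles the acetylated form. All 4 groups had received the synthetic FXR agonist GW4064 overnight (30 mg/kg, corn oil), 1 week after infection, so no group shows liver without virus or without agonist. The sample titles mark the obese mice HFD, the livers keep the FXR of the mouse itself, the sources used here do not name the promoter on the virus, and each mutant was expressed on 1 background only. The series title names an acetyl and SUMO switch of FXR and hepatic inflammation in obesity, and the comparisons below ask how the level of each transcript lay with each mutant against FXR-WT and with obesity.

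Between 18263 and 19500 probes were detected per array, with a mean of 41.9 to 44.0 beads per probe. Levels are given as log2 intensities after normalization, and each change is the mean of 1 group minus that of another on the log2 scale, with its standard error (SE). Nothing in the labels ties replicates to separate animals, so the p-values cover the spread between these arrays, which may be technical. The transcript of a whole liver is read, in which fewer cells of a type and less RNA per cell cannot be told apart. Of 13 hepatocyte markers, between 12 and 13 were detected on every array. Their summed intensity was 238457 to 244971 in obese FXR-K217R livers, 235591 to 265674 in obese FXR-WT livers, 248616 to 278883 in lean FXR-K217Q livers and 260060 to 265280 in lean FXR-WT livers. The albumin probe (Alb) read only 7.79 to 8.97, whereas transthyretin (Ttr), another plasma protein of hepatocytes, read 14.67 to 14.80.

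In the acute phase response, interleukin-6 acts on hepatocytes through its receptor and the transcription factor STAT3, and interleukin-1 through NF-kB and C/EBP factors, and together they raise the transcription of secreted defence proteins. Saa1 and Saa2 encode serum amyloid A proteins that travel on high density lipoprotein and are among the most inducible transcripts of mouse liver. Saa3 is made in mice by macrophages and adipocytes as well as by liver, and Saa4 is the constitutive member of the family. Orm1 and Orm2 encode orosomucoids, Hp encodes haptoglobin, which binds free haemoglobin, and Lcn2 encodes lipocalin 2, which captures bacterial iron carriers and is also stored in neutrophil granules. Serpina3n is a serine protease inhibitor, and Itih3 is a heavy chain that is joined to hyaluronan in the extracellular matrix.

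The 4 Saa genes lie together on chromosome 7 of GRCm38.p6, Saa3 at 46711998 to 46719615, Saa4 at 46727992 to 46732603, Saa1 at 46740497 to 46743181 and Saa2 at 46751833 to 46754313. Orm1 (63344556 to 63348163) and Orm2 (63362449 to 63365877) are neighbours on chromosome 4. Hp is on chromosome 8 (109575128 to 109579172), Lcn2 on chromosome 2 (32384637 to 32387739), Serpina3n on chromosome 12 (104406646 to 104414334) and Itih3 on chromosome 14 (30908572 to 30923787). RefSeq lists Saa2 among the older names of Saa1 and Saa1 among those of Saa2, and Saa1 and Saa2 as well as Orm1 and Orm2 are close copies of each other. The sequences of the probes were not used here, so which copy each of their probes reads is uncertain.

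The bases before the start of Saa1, Saa2, Saa3 and Serpina3n are shown because the levels of Saa2, of 1 Saa1 probe and of Serpina3n went together over the arrays, whereas Saa3 did not follow them. They are from RefSeq, build GRCm38.p6, each of 250 bases, read 5′ to 3′ on the strand of the gene, and end just before the start site that the table uses, which for Saa1, Saa3 and Serpina3n lies inside the annotated span of the gene. They are chr7:46742981-46743230 on the minus strand for Saa1, chr7:46751583-46751832 on the plus strand for Saa2, chr7:46715677-46715926 on the minus strand for Saa3 and chr12:104406458-104406707 on the plus strand for Serpina3n. Capitals mark a match to a C/EBP-type motif in the first 3 and to an NF-kB-type motif in Serpina3n. In Saa1 and Saa2 the match is on the opposite strand, so the capitals show its reverse complement.
Saa1: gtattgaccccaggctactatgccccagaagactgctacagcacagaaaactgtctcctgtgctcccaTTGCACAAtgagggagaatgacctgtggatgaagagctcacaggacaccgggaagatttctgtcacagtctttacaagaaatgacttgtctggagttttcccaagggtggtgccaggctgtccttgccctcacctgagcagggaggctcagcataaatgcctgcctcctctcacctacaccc
Saa2: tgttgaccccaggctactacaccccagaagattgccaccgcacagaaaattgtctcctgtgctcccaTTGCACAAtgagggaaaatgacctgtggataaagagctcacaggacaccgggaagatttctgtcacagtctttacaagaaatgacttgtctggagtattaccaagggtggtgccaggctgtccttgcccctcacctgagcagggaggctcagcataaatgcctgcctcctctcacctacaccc
Saa3: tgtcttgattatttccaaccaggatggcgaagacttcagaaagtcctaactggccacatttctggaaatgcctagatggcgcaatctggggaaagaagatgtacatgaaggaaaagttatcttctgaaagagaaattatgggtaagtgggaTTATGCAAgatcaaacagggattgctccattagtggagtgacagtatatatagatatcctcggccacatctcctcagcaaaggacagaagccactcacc
Serpina3n: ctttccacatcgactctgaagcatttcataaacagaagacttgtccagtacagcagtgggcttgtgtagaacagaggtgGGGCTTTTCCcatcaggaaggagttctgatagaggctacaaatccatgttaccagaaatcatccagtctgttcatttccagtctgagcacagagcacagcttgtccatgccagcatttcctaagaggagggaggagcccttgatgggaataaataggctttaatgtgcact
Over the window of 300 bases that includes 50 bases after the start, Saa1 and Saa2 were identical at 287 of 301 aligned positions (95.3%), whereas Saa1 and Saa3 shared 182 of 336 (54.2%) and Saa1 and Saa4 shared 173 of 340 (50.9%).

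All 32851 promoter windows of the table were searched on both strands for TTNNGCAA (C/EBP-type), GGGNNTTTCC (NF-kB-type) and TTCNNNGAA (STAT-type), and 8 of the 10 members had an entry there. The C/EBP-type letters were found in 10.8% of all windows and in those of Saa1, Saa2, Saa3, Saa4, Orm2 and Lcn2. Their first base lay 182 bases before the start in Saa1, 183 in Saa2 and 99 in Saa3. The NF-kB-type letters were found in 1.63% of all windows and, among members, in that of Serpina3n, 171 bases before the start. The STAT-type letters were found in 8.30% of all windows and in none of the members' windows. Each of the 4 sequences shown held only the match marked in it, so matches could not overlap. A match is a description of letters and not a binding site.

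The Saa2 probe was among the most variable members. Saa2 read 8.22, 10.87 and 9.91 in obese FXR-K217R livers, against 11.64, 11.10 and 8.91 in obese FXR-WT livers. It read 9.84, 9.03 and 12.20 in lean FXR-K217Q livers, against 12.03 and 12.05 in lean FXR-WT livers. Both lean FXR-WT arrays were high, and lean FXR-K217Q replicate 3 was higher still, while replicates 1 and 2 of its group lay far below. Among obese FXR-WT livers replicate 3 was low, and among obese FXR-K217R livers replicate 1 was the lowest of all 11. Before normalization the lowest array had an intensity of 486 and the highest 4572, a span of 9.40-fold. The standard error over the beads of an array was 5.78% to 9.98% of the intensity, an error that leaves out labelling, hybridization and RNA. From lowest to highest, the group means were 9.67 ± 1.34 in obese FXR-K217R, 10.36 ± 1.65 in lean FXR-K217Q, 10.55 ± 1.45 in obese FXR-WT and 12.04 ± 0.013 in lean FXR-WT livers (SD, n = 3, 3, 3 and 2). Neighbouring groups in that order overlapped, except that all 3 obese FXR-WT arrays lay below both lean FXR-WT arrays.

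The Saa1 probes gave unlike pictures. The dimmer one, ILMN_2826869, read 8.70, 11.23 and 9.997 in obese FXR-K217R livers, against 11.41, 11.59 and 9.10 in obese FXR-WT livers. It read 10.38, 9.55 and 12.72 in lean FXR-K217Q livers, against 12.47 and 12.22 in lean FXR-WT livers. These are the high and low arrays of Saa2, and the dimmer Saa1 probe and the Saa2 probe had a Pearson r of 0.99 and a Spearman rho of 0.97 over the 11 arrays (r = 0.97 over the 9 left without the 2 arrays farthest from the median). The brighter probe, ILMN_2768154, read 14.65, 14.99 and 15.05 in obese FXR-K217R livers, against 14.97, 14.99 and 14.67 in obese FXR-WT livers. It read 15.14, 14.72 and 15.20 in lean FXR-K217Q livers, against 15.08 and 15.11 in lean FXR-WT livers. Its lowest arrays were again obese FXR-K217R replicate 1, obese FXR-WT replicate 3 and lean FXR-K217Q replicate 2, but its whole range was 0.55, against 4.02 for the dimmer probe. The probes of Saa1 correlated at r = 0.82 (rho = 0.75), and at 0.62 over the 9 arrays left without the 2 farthest.

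**Figure D1:**
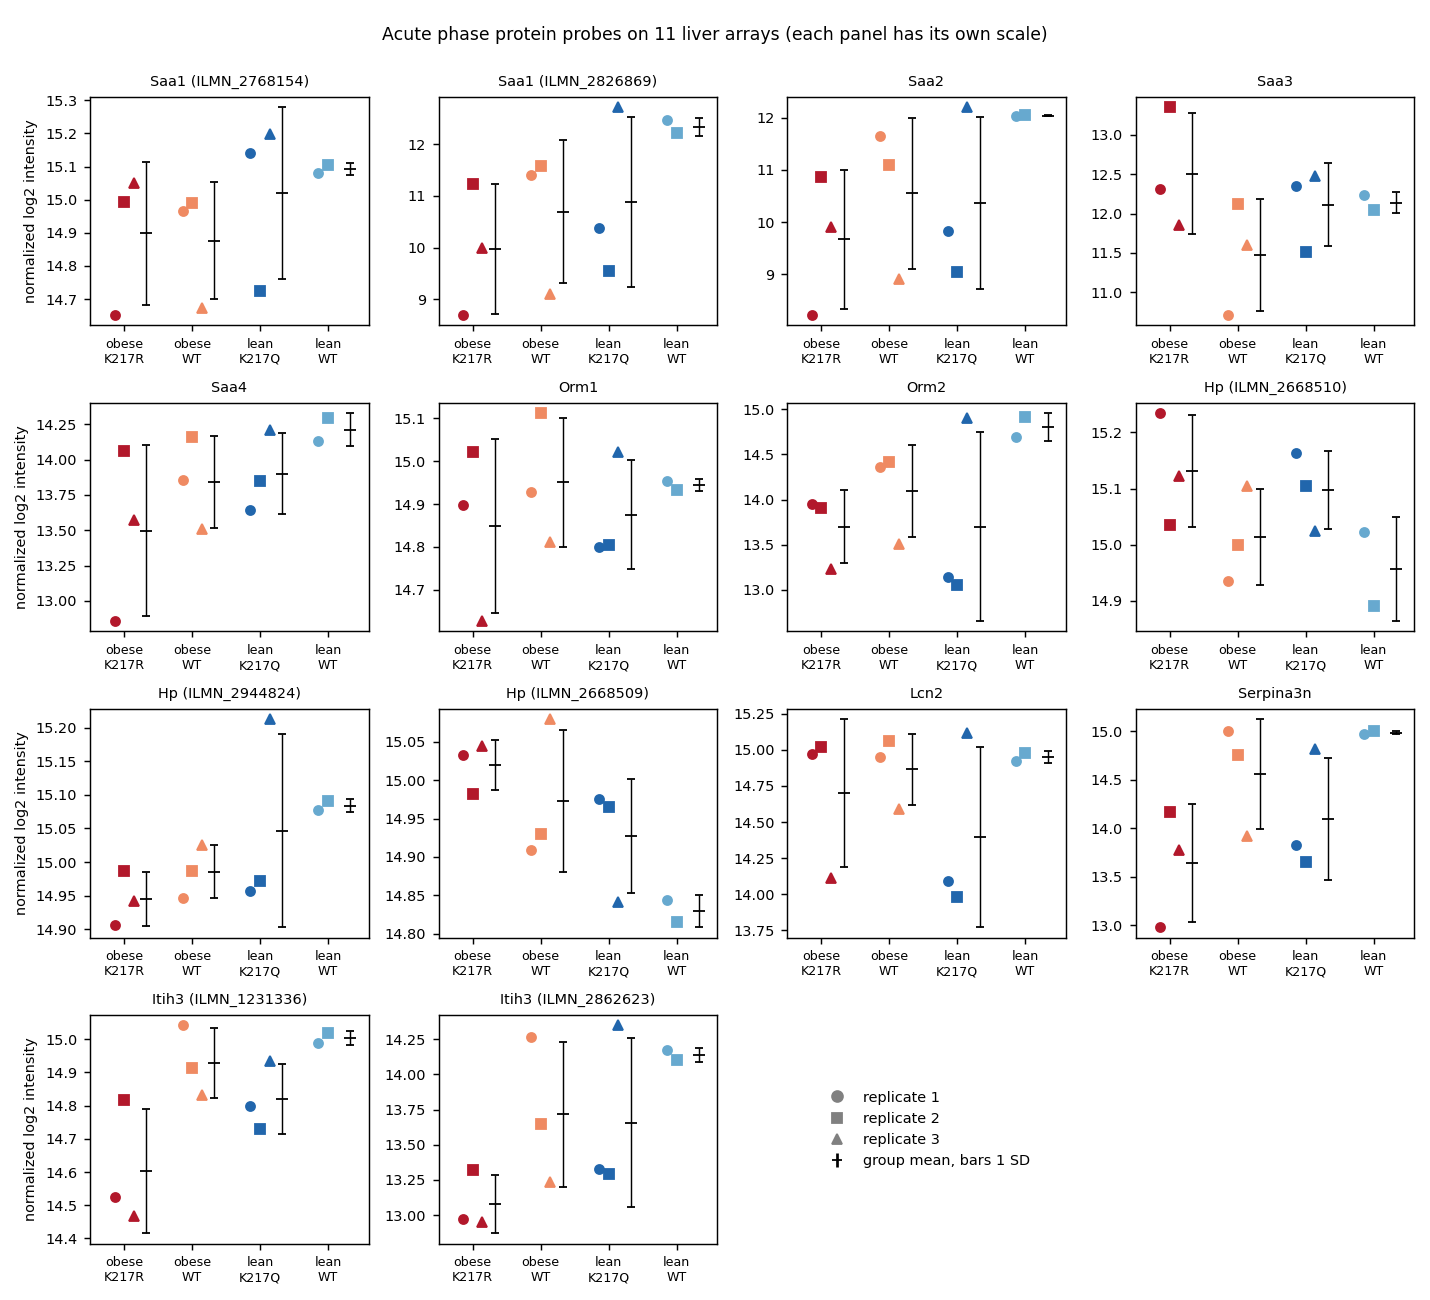
Normalized log2 intensity of each of the 14 acute phase protein probes on the 11 arrays, 1 panel per probe with its own vertical scale; symbols mark replicate numbers and the bars show the group mean and 1 SD (n = 3, or 2 for lean FXR-WT). Saa2 spans 8.22 to 12.20 and splits the lean FXR-K217Q and obese FXR-WT groups, whereas the Hp panels span 0.34 or less.

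Saa3 followed another order. Saa3 read 12.31, 13.35 and 11.86 in obese FXR-K217R livers, against 10.71, 12.13 and 11.60 in obese FXR-WT livers. It read 12.35, 11.51 and 12.48 in lean FXR-K217Q livers, against 12.24 and 12.04 in lean FXR-WT livers. The highest array was obese FXR-K217R replicate 2 and the lowest was obese FXR-WT replicate 1, which was the highest of its group for Saa2. Saa2 and Saa3 correlated at r = 0.09 (rho = 0.17) over the 11 arrays, and their deviations from the group means correlated at 0.30. Saa4 read 12.86, 14.06 and 13.57 in obese FXR-K217R livers, against 13.86, 14.16 and 13.51 in obese FXR-WT livers. It read 13.64, 13.84 and 14.21 in lean FXR-K217Q livers, against 14.13 and 14.29 in lean FXR-WT livers. Saa4 kept much of the order of Saa2 (r = 0.86, rho = 0.91) over a narrower range of 1.44, with obese FXR-K217R replicate 1 lowest again.

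Serpina3n read 12.98, 14.17 and 13.78 in obese FXR-K217R livers, against 15, 14.76 and 13.92 in obese FXR-WT livers. It read 13.83, 13.65 and 14.82 in lean FXR-K217Q livers, against 14.98 and 15 in lean FXR-WT livers. Obese FXR-K217R replicate 2 lay above obese FXR-WT replicate 3, so the obese groups overlapped, whereas all 3 lean FXR-K217Q arrays lay below both lean FXR-WT arrays. Over the 11 arrays Serpina3n and Saa2 correlated at r = 0.95 (rho = 0.87), and the deviations from the group means correlated at 0.99. The group means were 13.64 ± 0.61 in obese FXR-K217R, 14.10 ± 0.63 in lean FXR-K217Q, 14.56 ± 0.57 in obese FXR-WT and 14.99 ± 0.016 in lean FXR-WT livers (SD, n = 3, 3, 3 and 2), and neighbours in this order overlapped.

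**Figure D2:**
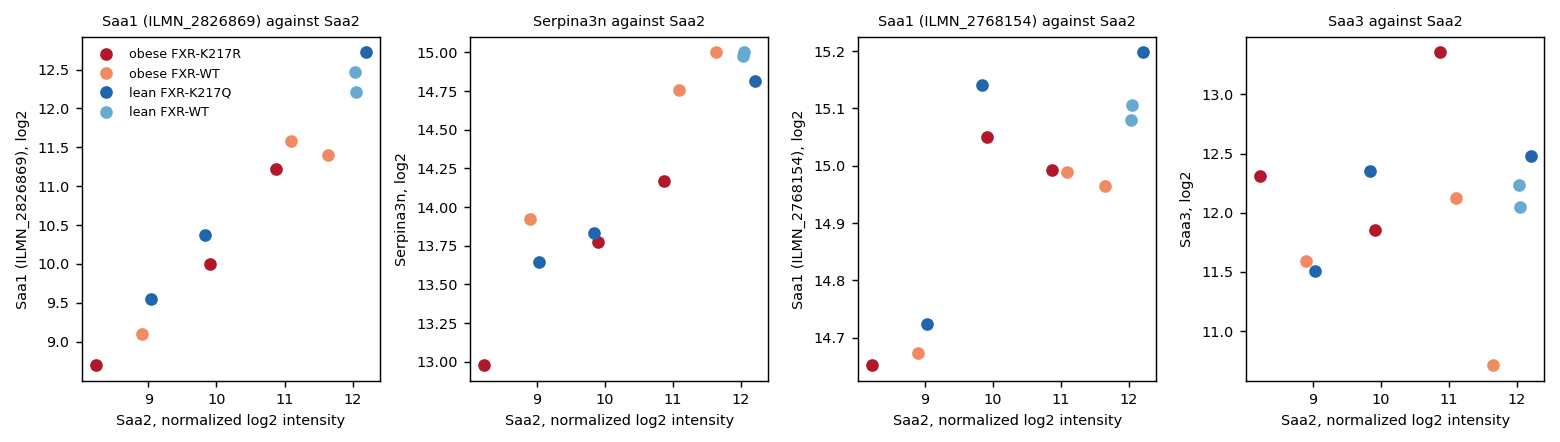
Normalized log2 intensity of both Saa1 probes, Serpina3n and Saa3 against that of Saa2, 1 point per array, coloured by group. The dimmer Saa1 probe and Serpina3n lie near a line against Saa2 (r = 0.99 and 0.95), the brighter Saa1 probe lies within a range of 0.55, and Saa3 shows little relation (r = 0.09).

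Itih3 had a brighter and a dimmer probe, which correlated at r = 0.88 (rho = 0.87) and had different highest arrays. The brighter probe, ILMN_1231336, read 14.53, 14.82 and 14.47 in obese FXR-K217R livers, against 15.04, 14.91 and 14.83 in obese FXR-WT livers. It read 14.80, 14.73 and 14.93 in lean FXR-K217Q livers, against 14.99 and 15.02 in lean FXR-WT livers. In both mutant groups every array lay below every FXR-WT array of the same background, by a narrow margin. The dimmer probe, ILMN_2862623, read 12.97, 13.32 and 12.95 in obese FXR-K217R livers, against 14.26, 13.64 and 13.24 in obese FXR-WT livers. It read 13.33, 13.29 and 14.35 in lean FXR-K217Q livers, against 14.17 and 14.10 in lean FXR-WT livers. Here both mutant groups overlapped with FXR-WT, since obese FXR-WT replicate 3 was low and lean FXR-K217Q replicate 3 was the highest array of all.

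Orm2 read 13.96, 13.91 and 13.23 in obese FXR-K217R livers, against 14.36, 14.42 and 13.51 in obese FXR-WT livers. It read 13.14, 13.06 and 14.91 in lean FXR-K217Q livers, against 14.69 and 14.91 in lean FXR-WT livers. Lean FXR-K217Q replicates 1 and 2 were the lowest of the 11 arrays and replicate 3 stood among the lean FXR-WT arrays. The group means were 13.70 ± 0.41 in obese FXR-K217R, 13.70 ± 1.04 in lean FXR-K217Q, 14.10 ± 0.51 in obese FXR-WT and 14.80 ± 0.15 in lean FXR-WT livers (SD, n = 3, 3, 3 and 2). The Orm1 probe read 14.90, 15.02 and 14.63 in obese FXR-K217R livers, against 14.93, 15.11 and 14.81 in obese FXR-WT livers. It read 14.80, 14.80 and 15.02 in lean FXR-K217Q livers, against 14.95 and 14.93 in lean FXR-WT livers. Replicate 3 was lowest in both obese groups and highest in the lean FXR-K217Q group for Orm1, as it was for Orm2.

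Lcn2 correlated with Orm2 at r = 0.88 (rho = 0.78). Lcn2 read 14.97, 15.02 and 14.11 in obese FXR-K217R livers, against 14.95, 15.06 and 14.59 in obese FXR-WT livers. It read 14.09, 13.98 and 15.12 in lean FXR-K217Q livers, against 14.92 and 14.98 in lean FXR-WT livers. In each of the 3 groups of 3, the array that stood apart was replicate 3, low in both obese groups and high in the lean FXR-K217Q group. Its intensities before normalization were 34636, 32382 and 16493 in obese FXR-K217R livers, against 34394, 33372 and 25138 in obese FXR-WT livers. They were 17471, 16201 and 33800 in lean FXR-K217Q livers, against 31488 and 31508 in lean FXR-WT livers. The low arrays were thus clearly dimmer, while the high arrays lay close to one another near the top of the scale.

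Haptoglobin was bright and nearly level on all arrays. Probe ILMN_2668510 read 15.23, 15.04 and 15.12 in obese FXR-K217R livers, against 14.94, 15 and 15.11 in obese FXR-WT livers. It read 15.16, 15.11 and 15.02 in lean FXR-K217Q livers, against 15.02 and 14.89 in lean FXR-WT livers. All 3 lean FXR-K217Q arrays lay above both lean FXR-WT arrays, though the nearest pair read 15.025 and 15.022. Probe ILMN_2668509 read 15.03, 14.98 and 15.04 in obese FXR-K217R livers, against 14.91, 14.93 and 15.08 in obese FXR-WT livers. It read 14.98, 14.97 and 14.84 in lean FXR-K217Q livers, against 14.84 and 14.81 in lean FXR-WT livers. Probe ILMN_2944824 ran the other way in lean livers, where replicate 3 of FXR-K217Q was its highest array. It read 14.91, 14.99 and 14.94 in obese FXR-K217R livers, against 14.95, 14.99 and 15.02 in obese FXR-WT livers, and 14.96, 14.97 and 15.21 in lean FXR-K217Q livers, against 15.08 and 15.09 in lean FXR-WT livers. ILMN_2668510 and ILMN_2944824 correlated at r = -0.48. With Serpina3n, ILMN_2668510 correlated at r = -0.92 (rho = -0.92), ILMN_2668509 at -0.82 and ILMN_2944824 at 0.62, so the Hp probes differed in sign. The range of ILMN_2668510 was only 0.34.

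The brightest members lay at the top of the arrays. All 3 Hp probes, the Orm1 probe and the brighter Saa1 probe were among the 150 brightest probes on every array, and ILMN_2668510 of Hp was the brightest probe of all on obese FXR-K217R replicate 1. The brightest probe of an array had an intensity of 36150 to 43441, and between 45 and 103 probes per array exceeded 80% of it. The Hp probes stood at 76.8% to 100% of the brightest probe of their array, the brighter Saa1 probe at 64.9% to 98.9%, Orm1 at 59.4% to 94.0% and Lcn2 at 41.7% to 93.4%. By contrast the dimmer Saa1 probe stood at 1.46% to 18.3% and Saa2 at 1.14% to 12.6%. The columns used here hold no flag for saturation, and whether the bright probes could have read a higher level was not tested.

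**Figure D3:**
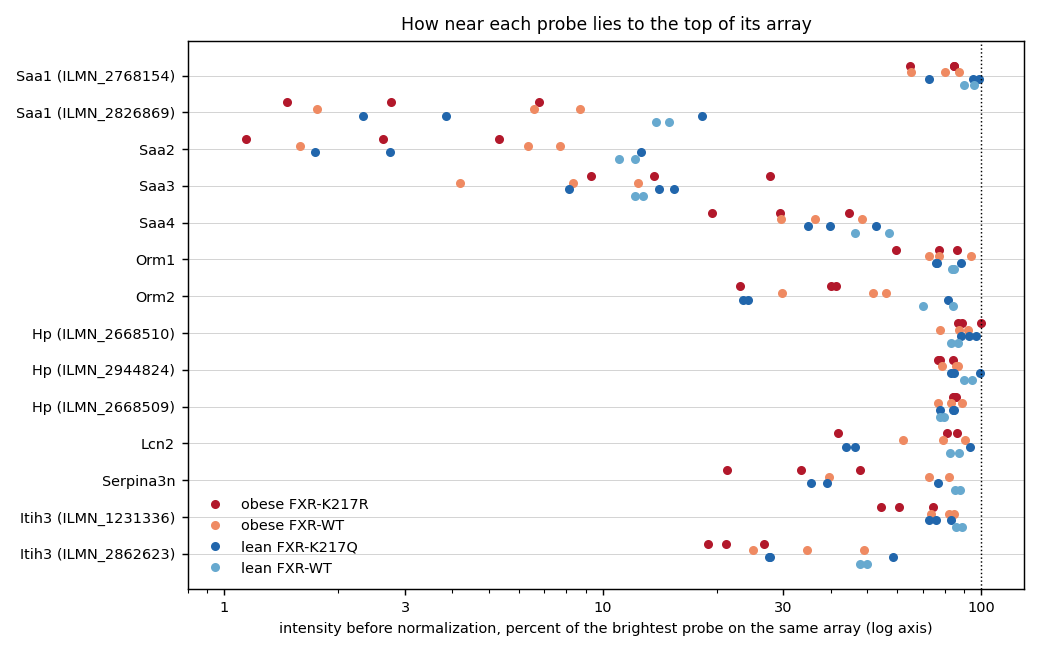
Intensity before normalization of each probe as a percent of the brightest probe on the same array (log axis), 1 point per array, coloured by group; the dotted line marks 100%. The Hp probes stay between 76.8% and 100%, while Saa2 runs from 1.14% to 12.6%.

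In obese livers 10 of the 14 member probes averaged lower with FXR-K217R than with FXR-WT, against 50.1% of all probes tested. Several member probes went together over the arrays, so the 14 do not count separately, here or in the comparisons below. The groups overlapped for 13 of the 14 and none passed the test. The median change over the 14 probes was -0.25, against 0.00 over all 21485 probes. At 5% FDR in limma 0 member probes were called (smallest adjusted p = 0.996), where 7 probes of the array, 0.0326%, were called and 940 had an unadjusted p under 0.05. Among members 3 probes had an unadjusted p under 0.05, namely the brighter Itih3 probe, Serpina3n and Saa3. The brighter Itih3 probe was the only member whose FXR-K217R arrays all lay below the FXR-WT arrays, a state that 5.32% of all probes share, and 0 member probes lay wholly above, as 4.51% of all probes do.

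Serpina3n averaged 1.89-fold lower in FXR-K217R livers, a change of -0.92 (SE 0.38, unadjusted p = 0.034). Without obese FXR-K217R replicate 1, its lowest array, the change was -0.59, and without obese FXR-WT replicate 3 it was -1.24. The brighter Itih3 probe changed by -0.33 (SE 0.13, unadjusted p = 0.027) and the dimmer by -0.64 (SE 0.30), so both Itih3 probes pointed the same way without passing. Saa3 differed in sign, with a change of 1.03 (SE 0.42, unadjusted p = 0.034), or 2.04-fold higher in FXR-K217R livers. That value was 0.65 without obese FXR-WT replicate 1 and 0.60 without obese FXR-K217R replicate 2. For Saa2 the change was -0.88 (SE 0.91), with a 95% interval from -2.89 to 1.12 that holds large changes of either sign. It was -0.16 without obese FXR-K217R replicate 1 and -1.70 without obese FXR-WT replicate 3. The dimmer Saa1 probe changed by -0.72 (SE 0.88), Orm2 by -0.40 (SE 0.44), Saa4 by -0.34 (SE 0.28) and Lcn2 by -0.17 (SE 0.31). With 1 array left out, the dimmer Saa1 probe changed by between -1.52 (without obese FXR-WT replicate 3) and -0.085 (without obese FXR-K217R replicate 1). For Orm2 the range was -0.69 (without obese FXR-WT replicate 3) to -0.16 (without obese FXR-K217R replicate 3). For Saa4 it was -0.63 (without obese FXR-K217R replicate 2) to -0.023 (without replicate 1 of that group), so 1 array could take most of these changes away. The dimmer Itih3 probe changed by -0.36 without obese FXR-WT replicate 1. The remaining 5 probes, those of Hp and Orm1 and the brighter Saa1 probe, lay between -0.10 and 0.12.

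The 7 probes called in obese livers were all lower with FXR-K217R and belonged to 6 neutrophil genes: Camp, Ltf, Mpo, Ngp, S100a8 and S100a9. Ltf, the granule protein lactoferrin, fell by 3.25 (SE 0.26, adjusted p = 0.0017 in limma) in FXR-K217R livers against FXR-WT livers, and the change was -2.87 for Ngp, -3.02 for Camp, -3.22 for Mpo, -2.29 for S100a8 and -2.56 for S100a9. Near background in FXR-K217R livers were Mpo and Camp, each detected by 2 of 3 arrays there, and Ngp, detected by 1. Of 18 neutrophil markers on the array 15 were tested, and 6 of them were called lower. For 14 of the 15 the FXR-K217R arrays lay wholly below the FXR-WT arrays, as for 5.32% of all probes. Their summed intensity was 2287 to 3746 in obese FXR-K217R livers, against 12478 to 15665 in obese FXR-WT livers, and 3409 to 6523 in lean FXR-K217Q livers, against 6012 to 6249 in lean FXR-WT livers. With FXR-K217Q 0 neutrophil markers were called. Of the 15, 6 had FXR-K217Q arrays wholly below FXR-WT arrays, as 11.6% of all probes do, and 1 wholly above, as 10.9% do. The smallest unadjusted p belonged to Ltf, Mpo and Camp, which were near background in the FXR-K217Q group. Ltf averaged 5.22 in lean FXR-K217Q livers, where 1 of 3 arrays detected it, and 7.48 in lean FXR-WT livers (adjusted p = 0.092 in limma). Camp averaged 5.01, detected on 1 of 3 arrays, against 6.58. Mpo, detected on 0 of 3 arrays, averaged 4.66 against 7.04 (adjusted p = 0.168 in limma). It was at least 3.38-fold lower, with the lowest detected signal of each array in place of its own. By the same bound Ngp, also not detected in lean FXR-K217Q livers, was at least 1.38-fold lower (adjusted p = 0.523 in limma). Lcn2, which neutrophils also store, was highest of its group on lean FXR-K217Q replicate 3. The summed neutrophil intensity (6523) and S100a8 (11.38) were also highest of that group there. The median of the 15 markers was not, at 6.15 on replicate 3 against 6.63 on replicate 1. Replicate 3 detected 10 of the 15 and replicate 1 detected 12. On obese FXR-WT replicate 3, where Lcn2 was lowest of its group, the neutrophil sum (15665) and Ltf (10.08) were the highest of all 11 arrays. The part of neutrophil RNA in the Lcn2 reading was not tested.

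In lean livers 12 of the 14 member probes averaged lower with FXR-K217Q than with FXR-WT, against 49.7% of all probes tested. Again none passed. The median change was -0.25, against 0.00 over all probes. At 5% FDR in limma 0 members were called (smallest adjusted p = 0.677), and 0% of all probes were called either, with 1576 probes at an unadjusted p under 0.05 and a smallest adjusted p of 0.092. Serpina3n and the brighter Itih3 probe had all FXR-K217Q arrays below both FXR-WT arrays, as 11.6% of all probes do, and ILMN_2668510 of Hp had them all above, as 10.9% do, so the 3 of 14 members are near the share of the whole array.

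Orm2 averaged 2.15-fold lower in FXR-K217Q livers, a change of -1.10 (SE 0.50, unadjusted p = 0.049), and Serpina3n 1.85-fold lower, a change of -0.89 (SE 0.42). Saa2 changed by -1.68 (SE 1.02), with a 95% interval from -3.92 to 0.56, and the dimmer Saa1 probe by -1.46 (SE 0.99). Lcn2 changed by -0.55 (SE 0.35), the dimmer Itih3 probe by -0.48 (SE 0.34), Saa4 by -0.31 (SE 0.31) and the brighter Itih3 probe by -0.18 (SE 0.14). Saa3 was level, at -0.03 (SE 0.47). These means rest on groups that were split, since FXR-K217Q replicate 3 stood with the FXR-WT arrays. When it was left out, the change was -1.70 for Orm2 (adjusted p = 0.112), -2.60 for Saa2 (adjusted p = 0.309), -0.91 for Lcn2 (adjusted p = 0.275), -1.25 for Serpina3n (adjusted p = 0.278) and -2.37 for the dimmer Saa1 probe, still with no call. With FXR-K217Q replicate 2 left out in its place, the change of Orm2 was -0.78, that of Saa2 -1.02, that of the dimmer Saa1 probe -0.79 and that of Lcn2 -0.35. The dimmer Itih3 probe changed by -0.83 without replicate 3 and by -0.30 without replicate 2. Saa4 changed by -0.18 without FXR-K217Q replicate 1.

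**Figure D4:**
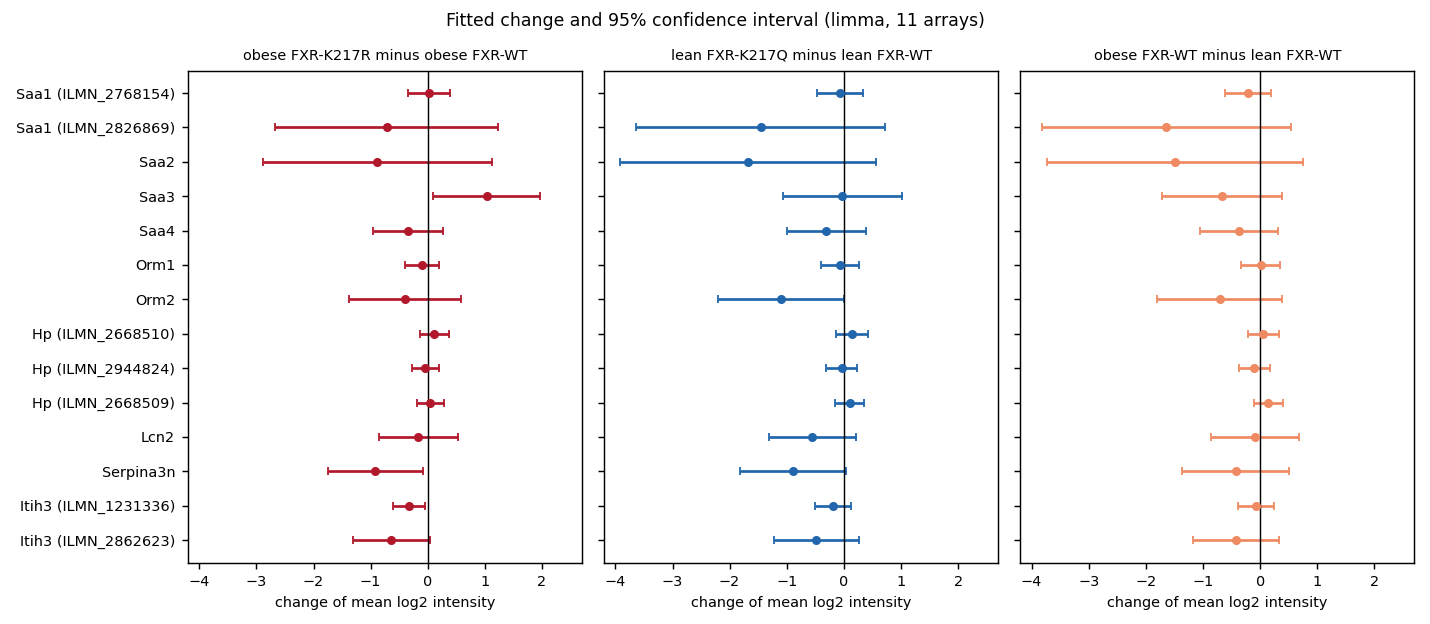
Fitted change of each probe with its 95% confidence interval (limma, 11 arrays) in 3 comparisons: obese FXR-K217R minus obese FXR-WT, lean FXR-K217Q minus lean FXR-WT, and obese FXR-WT minus lean FXR-WT. Most points lie left of 0, at -0.92 for Serpina3n in obese livers and -1.68 for Saa2 in lean livers, and the intervals of Saa2 and the dimmer Saa1 probe are the widest.

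With FXR-WT in both, 11 of the 14 member probes averaged lower in obese than in lean livers, against 51.2% of all probes tested. The median change was -0.29, against -0.01 over all probes, and 0 members were called at 5% FDR in limma (smallest adjusted p = 0.518), nor had any an unadjusted p under 0.05. In the same comparison 203 probes were called, 0.945% of those tested, 104 of them higher and 99 lower. This comparison shares its arrays with those of both mutants. All obese arrays lay below both lean arrays for 5 of the 14 member probes, as they did for 16.5% of all probes, namely both Saa1 probes and Saa2, which may read the same transcripts, Orm2 and ILMN_2944824 of Hp, and above both for ILMN_2668509 of Hp, as for 15.8% of all probes. In obese livers Saa2 averaged 2.81-fold lower (change -1.49, SE 1.02) and the dimmer Saa1 probe changed by -1.64 (SE 0.99). Orm2 changed by -0.71 (SE 0.50), Saa3 by -0.66 (SE 0.47), Serpina3n by -0.43 (SE 0.42), the dimmer Itih3 probe by -0.42 (SE 0.34) and Saa4 by -0.37 (SE 0.31). Lcn2 differed little, by -0.08 (SE 0.35). Obese FXR-WT replicate 3 weighed on these means: without it the change of Saa2 was -0.67, that of the dimmer Saa1 probe -0.84, that of Orm2 -0.41, that of Saa4 -0.20 and that of Lcn2 0.05. Serpina3n changed by -0.11 without replicate 3 and by -0.65 without replicate 1 of that group. The dimmer Itih3 probe changed by -0.19 and -0.70 in the same settings. Saa3 changed by -0.28 without obese FXR-WT replicate 1 and by -0.99 without replicate 2.

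The FXR-K217R change and the FXR-K217Q change were also set against each other, with 0% of all probes called in limma (978 at an unadjusted p under 0.05, smallest adjusted p = 0.073). Of the 14 member probes 0 were called, 8 differences were negative and 6 positive, and their median was -0.01. The largest in size was that of Saa3, 1.05 (SE 0.64, 95% interval from -0.35 to 2.46), followed by Saa2 at 0.80 (SE 1.36). For Serpina3n, which averaged lower with either mutant, the difference was -0.03 with an interval from -1.28 to 1.22. The mutants were expressed on different backgrounds, so mutant and background cannot be told apart in this difference.

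**Figure D5:**
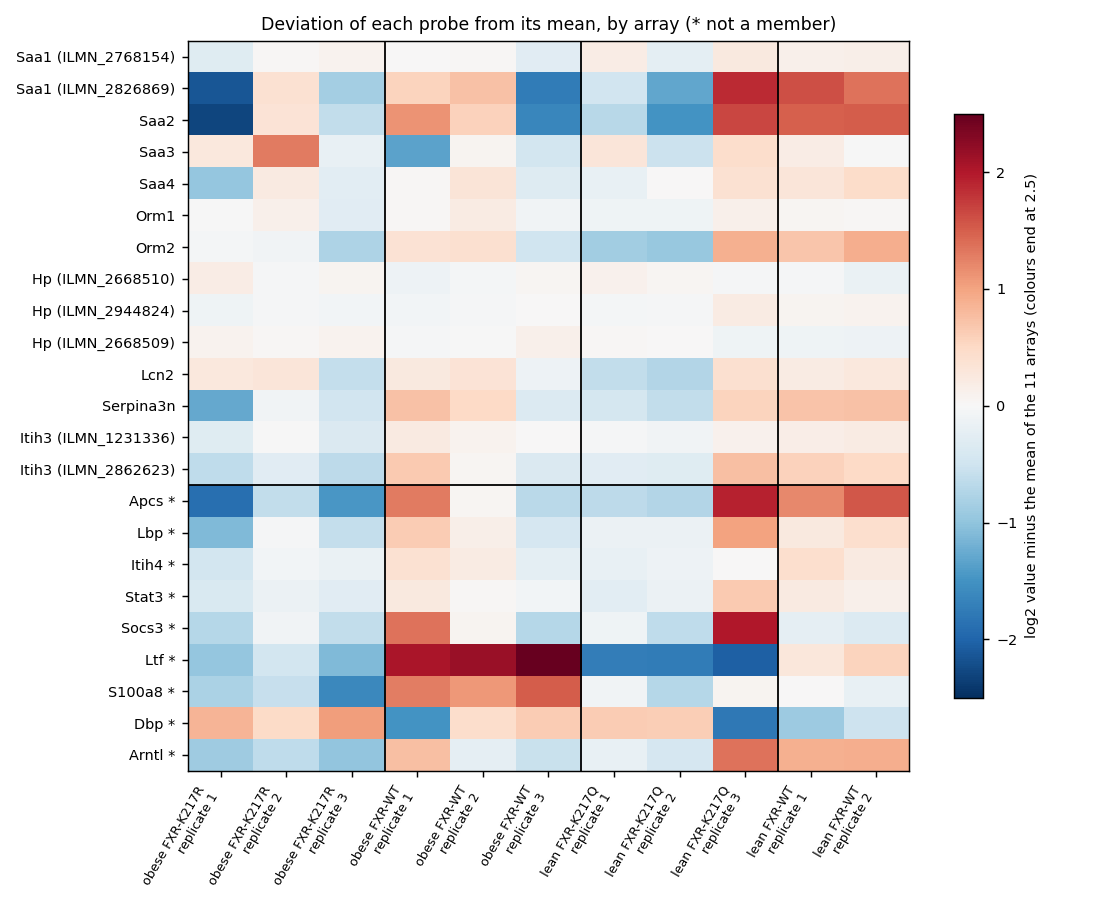
Deviation of each probe from its mean over the 11 arrays on the log2 scale (red higher, blue lower; colours end at 2.5), with arrays in columns by group. The upper 14 rows are the acute phase protein probes and the lower 9, marked with asterisks, are other genes; lean FXR-K217Q replicate 3 resembles lean FXR-WT for Saa2, Orm2, Lcn2 and Serpina3n and has the lowest Dbp (10.45).

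The split within groups was shared by some other acute phase transcripts. Apcs, serum amyloid P, read 9.64, 10.91 and 10.07 in obese FXR-K217R livers, against 12.83, 11.58 and 10.86 in obese FXR-WT livers. It read 10.87, 10.81 and 13.46 in lean FXR-K217Q livers, against 12.73 and 13.08 in lean FXR-WT livers. Lean FXR-K217Q replicate 3 and obese FXR-WT replicate 1 were the high arrays of their groups, and Apcs correlated with Saa2 at r = 0.90 (rho = 0.93, and r = 0.86 without the 2 farthest arrays). Lbp, which binds bacterial lipopolysaccharide, correlated with Saa2 at r = 0.89 (rho = 0.92), Itih4, another heavy chain, at 0.86 and Steap4, a metalloreductase, at 0.82. Others did not share it: haemopexin (Hpx) and Hamp correlated with Saa2 at r = -0.19 and -0.20. Complement C3 ran in reverse, at r = -0.55 (rho = -0.50, and r = -0.77 without the 2 farthest arrays). These correlations are over the same 11 arrays and share their libraries.

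Of 26 other positive acute phase proteins on the array 24 were tested, and 0 were called in any of the 3 comparisons in either direction. Their median change was -0.25 with FXR-K217R in obese livers (8 positive and 16 negative), -0.08 with FXR-K217Q in lean livers (10 and 14) and -0.07 for obese against lean FXR-WT livers (9 and 15). With FXR-K217R the smallest unadjusted p belonged to Serpina1e, an alpha-1-antitrypsin (change -0.73, SE 0.24), Fgl1, a fibrinogen-like protein (-0.65, SE 0.24), and Apcs (-1.55, SE 0.68). With FXR-K217Q it belonged to Itih4 (-0.42, SE 0.19), Hamp, the iron hormone hepcidin (0.23, SE 0.14), and Apcs (-1.20, SE 0.77). Between obese and lean FXR-WT livers Serpina1e changed by -1.30 (SE 0.27), just short of the threshold (adjusted p = 0.051 in limma), Hamp by 0.28 (SE 0.14) and Serpina1a by -0.35 (SE 0.17). Of 15 negative acute phase proteins, which fall in the acute phase response, 0 were called in any comparison, with medians of -0.08, 0.01 and -0.03 in the same order. Itih2 had the smallest p of that list in all 3 comparisons, with changes of -0.30 (SE 0.13), -0.18 (SE 0.14) and -0.32 (SE 0.14). The next were Alb (-0.45, SE 0.24) and Apom (-0.23, SE 0.14) with FXR-K217R, Itih1 (-0.18, SE 0.15) and Trf (0.08, SE 0.11) with FXR-K217Q, and Serpinc1 (-0.38, SE 0.19) and Itih1 (-0.25, SE 0.15) with obesity.

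The cytokine side of the pathway showed no call either. Of 22 genes of interleukin-6, interleukin-1 and STAT3 signalling 21 were tested, Il6 itself having too few detected arrays, and 0 were called in any comparison (medians 0.03, 0.11 and -0.03 for FXR-K217R, FXR-K217Q and obesity). With FXR-K217R the smallest unadjusted p belonged to Tnf, tumour necrosis factor (change 0.61, SE 0.25), the kinase Jak1 (-0.27, SE 0.12) and Nfkb1, an NF-kB subunit (0.28, SE 0.13). With FXR-K217Q it belonged to Jak1 (-0.33, SE 0.14), the interleukin-6 receptor Il6ra (-0.82, SE 0.35) and Tnf (0.54, SE 0.28). With obesity it belonged to the receptors Lifr (-0.70, SE 0.26), Il6ra (-0.70, SE 0.35) and Osmr (0.49, SE 0.25). Socs3, the feedback inhibitor that STAT3 induces, read 7.82, 8.44 and 7.93 in obese FXR-K217R livers, against 9.89, 8.61 and 7.82 in obese FXR-WT livers. It read 8.44, 7.90 and 10.55 in lean FXR-K217Q livers, against 8.32 and 8.19 in lean FXR-WT livers. Its high arrays were obese FXR-WT replicate 1 and lean FXR-K217Q replicate 3, but the lean FXR-WT arrays, high for Saa2, were not high for Socs3 (r with Saa2 = 0.66). Stat3 itself went with Saa2 more closely (r = 0.81, rho = 0.84).

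Several clock transcripts moved with Saa2 over the arrays, directly or in reverse. Dbp, a clock-driven transcription factor, read 13.09, 12.71 and 13.27 in obese FXR-K217R livers, against 10.74, 12.67 and 12.88 in obese FXR-WT livers. It read 12.87, 12.85 and 10.45 in lean FXR-K217Q livers, against 11.32 and 11.71 in lean FXR-WT livers. The 4 arrays with Dbp under 12 were the 4 arrays with the highest Saa2, and Dbp correlated with Saa2 at r = -0.81 (rho = -0.86, and r = -0.81 without the 2 farthest arrays), with Orm2 at -0.77. Arntl, the clock activator BMAL1, correlated with Saa2 at 0.84 (rho = 0.80). Of the other clock transcripts tested, r with Saa2 was 0.72 for Clock, -0.79 for Nr1d2, -0.75 for Bhlhb2, -0.62 for Per3, -0.61 for Nr1d1, -0.49 for Tef, -0.35 for Per2 and 0.20 for Per1. Saa3 correlated with Dbp at 0.20 (rho = -0.09) and with Arntl at -0.13 (rho = 0.08), and its r with the 10 ran from -0.32 (Bhlhb2) to 0.47 (Nr1d1). Lcn2 lay between, at -0.56 with Dbp and 0.48 with Arntl. Of 12 clock transcripts 10 were tested and 0 were called in any comparison, with medians of 0.11, 0.06 and 0.25. The part of the clock transcripts in the levels of the acute phase genes was not tested. With FXR-K217R the smallest unadjusted p of the list belonged to Arntl (change -0.83, SE 0.43), Clock (-0.32, SE 0.19) and Nr1d1 (0.61, SE 0.42), with FXR-K217Q to Per1 (-0.49, SE 0.30), Nr1d1 (0.66, SE 0.47) and Arntl (-0.65, SE 0.48), and with obesity to Per2 (0.59, SE 0.20), Clock (-0.46, SE 0.21) and Arntl (-0.90, SE 0.48). Lean FXR-K217Q replicate 3 and obese FXR-WT replicate 1, the arrays of lowest Dbp in their groups, were also left out together. Orm2 then changed by -1.70 with FXR-K217Q (adjusted p = 0.082 in limma), and 0 members were called in any comparison. The lean FXR-WT arrays, with Dbp at 11.32 and 11.71, stayed in, against 12.87 and 12.85 on the FXR-K217Q arrays left. The lean groups then lay wholly apart in Dbp, so this setting cannot tell the mutant from the clock transcripts.

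Markers of other cell types were read beside the members. Of 17 macrophage and Kupffer cell markers 14 were tested and 0 were called, with medians of -0.03, -0.02 and 0.31. Vsig4, a Kupffer cell receptor, changed by -1.13 (SE 0.47) with FXR-K217R and by -1.06 (SE 0.53) with FXR-K217Q, and Cx3cr1, a chemokine receptor, by 1.13 (SE 0.37) with obesity. Next came Cx3cr1 (-0.73, SE 0.33) and Gpnmb (0.94, SE 0.50) with FXR-K217R, Cd68 (0.31, SE 0.22) and Csf1r (-0.34, SE 0.25) with FXR-K217Q, and Lyz2 (0.42, SE 0.19) and Gpnmb (1.08, SE 0.56) with obesity. Of 9 genes on the list of adipocyte markers 4 were tested, namely Cfd, Cidea, Car3 and Thrsp. Whether adipocytes or hepatocytes made these 4 transcripts was not tested. Cidea and Cfd were called higher in obese than in lean FXR-WT livers (adjusted p = 2.83e-05 and 0.019 in limma). Cidea averaged 10.23 in obese and 4.69 in lean FXR-WT livers, where 0 of 2 arrays detected it, and was thus at least 32.8-fold higher. Cfd changed by 3.54, and Adipoq, Retn, Lep, Plin and Fabp4 were the 5 with too few detected arrays. The adipocyte markers had 0 calls with FXR-K217R (Cidea -0.52, SE 0.29; Car3 1.41, SE 0.94; Thrsp 0.39, SE 0.58) and with FXR-K217Q (Cfd 1.58, SE 0.57; Thrsp -1.08, SE 0.64; Car3 0.07, SE 1.05). Between obese and lean FXR-WT livers 4 of 15 neutrophil markers were called higher, Ltf by 1.99 (SE 0.29), Ngp by 2.37, Camp by 2.06 and S100a9 by 1.59. The hepatocyte marker Tat, tyrosine aminotransferase, fell by 1.82 (adjusted p = 0.029 in limma) in obese against lean FXR-WT livers, with 1 of 3 obese FXR-WT arrays detecting it. With the mutants 0 hepatocyte markers were called, and the smallest unadjusted p belonged to Cps1 (-0.55, SE 0.22), Ass1 (-0.43, SE 0.20) and Alb for FXR-K217R and to Tat (-1.41, SE 0.33), Cps1 (-0.35, SE 0.25) and Ass1 (-0.19, SE 0.23) for FXR-K217Q. The part of these cell types in the levels of the members was not tested.

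Among 16116 probes with gene symbols, the order of Saa2 over the 11 arrays was most like that of Prg4 (r = 0.97), then Med24, Bmp1, Vps37b and Fxc1 (0.94 each). Prg4, which encodes the secreted glycoprotein lubricin, spanned 11.17 to 12.69. Serpina3n was most like a probe of Itih4 (r = 0.97), then Prtn3 (0.96), Med24 (0.95), Tpcn1 (0.94) and Cyb561 (0.94). Prtn3 encodes proteinase 3 of neutrophil granules and spanned 5.54 to 10.45. Orm2 was most like Rpl27a (0.96), Pde3b (0.95), Lpgat1 (0.93), Spin (0.93) and Mif4gd (0.93). Lcn2 had the loosest likeness, with Nfib (0.91), Cnot4 (0.90), Acp2 (0.88), Smcx (0.88) and Odc1 (0.87). Some of these probes were dim or nearly level. Pde3b spanned only 4.70 to 5.83, Nfib 5.46 to 6.42 and Med24 9.72 to 9.99. The correlations are the highest among many probes and rest on only 11 arrays.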

How the data were processed

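Per the file headers, the deposited table gives for each probe and array a mean bead intensity, the number of beads, the standard error over beads and a detection p-value. Bead counts are whole numbers, per the file headers. The labelled cRNA came from Illumina's TotalPrep kit, per the labels' protocols. The authors also deposited normalized log2 values, for which the submitters' processing notes name limma 3.12.3. The 2 deposited copies were identical (largest difference 0) and lay within 0.0271 of those computed here. Bead summary software and probe build are not given in the sources used here.

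Background correction and quantile normalization used neqc (limma 3.58.1, R 4.3.3; detection p-values, offset 16). Probes with a detection p under 0.05 on at least 2 arrays were kept. Group means were fitted with lmFit and eBayes to all 11 arrays, two-sided, with Benjamini-Hochberg adjustment over all 21485 probes within each comparison and a threshold of 5% FDR. Each list gene was read from its brightest tested probe. Groups came from the labels. Same-numbered replicates were not paired (correlation of deviations -0.11 to 0.23). The fit was also run on simulated data with independent noise, with shifts added to obese FXR-K217R arrays only. That run does not cover probes that go together or the lean groups. The members, lists and tests were chosen with earlier results of these data known. Every member probe is named, and of each list described the genes past 5% FDR or else the 3 with the smallest unadjusted p. Apcs, Lbp, Steap4, C3, Hpx, Socs3, Stat3, Dbp, Arntl and Ttr were added after their values were seen. Alternatives were other background corrections, scaling, filters, priors, weights, a replicate block and arrays left out.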

Additional observations from a re-analysis of the deposited data

How the results depend on the processing

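No member was called in any comparison under any of the alternatives run, and the lowest adjusted p reached was 0.767 for FXR-K217R, 0.082 for FXR-K217Q (Orm2), 0.085 for obesity (the dimmer Itih3 probe) and 0.561 for the difference of the mutant changes. Of 912 changes of member probes under alternatives, 896 kept their direction and 16 reversed. With median scaling the brighter Saa1 probe changed by -0.0033 with FXR-K217R, and with a replicate block Saa3 changed by 0.00037 with FXR-K217Q. Leaving out 1 array reversed the others: with FXR-K217R, the brighter Saa1 probe ranged from -0.079 to 0.15 (-0.025 and -0.053 among them), Orm1 from -0.19 to 0.0091 and Lcn2 from -0.33 to 0.13. With FXR-K217Q, the brighter Saa1 probe ranged from -0.16 to 0.077, Saa3 from -0.21 to 0.28 (0.069 among them) and ILMN_2944824 of Hp from -0.12 to 0.0077 (0.00042 among them). With obesity, Orm1 ranged from -0.074 to 0.076 (-0.0032 among them), Lcn2 from -0.18 to 0.055 and ILMN_2668510 of Hp from -0.0086 to 0.12.

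The number of probes called over the whole array moved more. For FXR-K217R it was 7, and 2 with probes detected on all arrays, 2 with only the arrays compared and 4 with the replicate block, and 4 to 11 with 1 array left out. For FXR-K217Q it was 0, and 1 without background correction, 10 with an intensity trend and robust prior, 1 with lean FXR-K217Q replicate 3 and obese FXR-WT replicate 1 left out together, and 0 to 2 with 1 array left out. For obesity it was 203, and 571 with array weights, 571 with those 2 arrays left out together, 131 with the replicate block, 130 with only the arrays compared, and 43 (without lean FXR-WT replicate 2) to 323 (without lean FXR-K217Q replicate 3) with 1 array left out. For the difference it was 0, and 2 without background correction and 1 with the trend and robust prior. The median difference over members was 0.35 with the 2 arrays left out together, against -0.01; that setting was chosen after seeing the data. The causes were not tested. The replicate block, whose numbers are not known to pair the samples, changed no member's call. Where 1 lean FXR-WT array remained, it was assumed to vary like the other groups. The slide as a block was not run, since the headers give no slide. The number of arrays limits the precision, and the brightest members lie near the top of the scale.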
